A study of Mus musculus with 6 samples.

Results

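The genes of the constitutive 26S proteasome were examined in the irradiated prostates of mice that carried 0, 1 or 2 copies of the Trp53 R270H allele. A gene was taken where its symbol was Psma, Psmb, Psmc or Psmd followed by a number, the inducible subunit genes Psmb8, Psmb9 and Psmb10 were set apart, and a mean of at least 1 FPKM over the 6 mice was required. FPKM counts sequenced fragments in proportion to transcript length and to the mapped fragments of the library, so levels of different genes can be set side by side on this scale per length. The rule gave 34 genes of the 47719 in the deposited tables, of which 13818 reached the same mean. Beside the 34 genes, 2 genes fitted the symbol rule but were below the minimum. Psma8, a testis form of an alpha subunit, had a mean of 0.0157 FPKM, with 0.0720 and 0.0225 in heterozygous mice 37 and 40 and a listed value of 0 in the other mice. Psmb11, the thymus form of a catalytic subunit, was listed at 0 in all 6 mice. The lowest gene kept was Psmd10, with a mean of 12 FPKM, so no gene lay near the minimum.

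The mice were of the strain B6.129S4-Trp53tm3.1Tyj/J, in which the R270H mutation sits in the germline Trp53 gene, so that every cell of a mutant animal carries it. There were 2 wildtype (Trp53+/+) mice, numbered 39 and 41, 2 heterozygous (Trp53R270H/+) mice, 37 and 40, and 2 homozygous (Trp53R270H/R270H) mice, 47 and 49. All 6 mice were about 3 months old and had received 5 Gy to the whole body, and the prostate was taken 6 h later for stranded mRNA sequencing. No unirradiated mouse was analysed here, so the response to irradiation itself could not be measured.

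The 26S proteasome is the protease that destroys proteins tagged with ubiquitin. Its 20S core is a barrel of 2 outer rings of alpha subunits and 2 inner rings of beta subunits, some of which cut peptide bonds, and its 19S cap binds the ubiquitin chain, removes it, unfolds the protein and feeds it into the barrel. p53 is one of its best known substrates, since Mdm2 tags p53 for this route until DNA damage interrupts it, and the subunit genes are known to be raised together by the factor Nrf1 (Nfe2l1) when proteasome activity is short.

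The promoter sequences are shown because subunit genes are held to be controlled together through shared short elements. RefSeq promoters of build GRCm38.p6, covering 250 bases before and 50 after a start site, were at hand for 28 of the 34 genes, in 30 windows. The core of the antioxidant response element, the site of Nrf1 and Nrf2 with small Maf proteins, was searched as TGACNNNGC on both strands, and the site of ETS factors as CCGGAAGT on both strands. The first was present in 5 of 30 windows (16.7%) against 12.4% of all 32851 promoter windows of the same length, and the second in 7 of 30 (23.3%) against 3.89%. The CCAAT box, bound by NF-Y, stood in 11 of 30 windows (36.7%) against 37.4% of all, and the GC box GGGCGG, bound by Sp1, in 18 of 30 (60%) against 35.7%. A match describes these letters only. Each motif was counted without regard to overlap with the others.

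Below, the capitals mark the antioxidant response element core in the 3 windows that hold it in the direction of the gene, 5′ to 3′ along the strand of the gene and with 10 bases on each side as far as the RefSeq start.
Psmb5, chr14:54618024-54618052, minus strand: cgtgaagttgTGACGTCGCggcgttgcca
Psmb6, chr11:70525338-70525356, plus strand: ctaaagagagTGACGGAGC
Psmd9, chr5:123228149-123228177, plus strand: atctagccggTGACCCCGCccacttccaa

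In the next set the capitals mark the ETS site, which reads ACTTCCGG where it lies on the opposite strand.
Psmc1, chr12:100110163-100110190, plus strand: tggtggatgcACTTCCGGcggtggcgat
Psmc2, first start, chr5:21785180-21785207, plus strand: accagtgagcACTTCCGGgatggggctc
Psmc2, second start, chr5:21786712-21786739, plus strand: gcgcggagctACTTCCGGtggggaagag
Psmd12, chr11:107479500-107479527, plus strand: tgagcgggcgACTTCCGGtgcgagtgac
Psmd6, chr14:14120973-14121000, minus strand: agagacgcgaCCGGAAGTcagactggcg
By the GENCODE annotation the Psmb5 and Psmb6 windows and the first Psmc2 window lie just outside the gene, the Psmd6 window spans its start, and the others lie inside it, because GENCODE begins those genes upstream of the RefSeq start used. The other ETS matches, in Psma6 and Psmd13, lay at or past the RefSeq start, and those of the response element in Psmc6 and Psmd12 lay on the opposite strand, with the first base at -227 and -247 relative to it. Of the genes shown, Psmb5, Psmb6, Psmd9 and Psmd12 also have their values in every mouse below.

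All 34 genes were well expressed in the prostate of every mouse. Their means ran from 12 FPKM for Psmd10 to 145 FPKM for Psmb6, which were ranks 5888 and 446 among the 13818 genes tested. The members summed to 2169 and 2399 FPKM in wildtype mice 39 and 41, 2340 and 2124 FPKM in heterozygous mice 37 and 40, and 2122 and 1988 FPKM in homozygous mice 47 and 49. The highest of these sums was 1.21 times the lowest, and homozygous mice 47 and 49 had the lowest ones, although 47 and heterozygous mouse 40 were nearly equal. As a share of all FPKM of a mouse, the sum was 0.398% and 0.395% in wildtype mice 39 and 41, 0.369% in both heterozygous mice, and 0.333% and 0.383% in homozygous mice 47 and 49. Both wildtype mice had a higher share than the 4 mutant mice, and mouse 47, not 49, had the lowest. The total FPKM itself ran from 518670 in mouse 49 to 636410 in mouse 47, so the share moved with this total as well as with the sum. The 14 genes of the 20S core summed to 1.28 to 1.38 times the 17 genes of the 19S cap, with wildtype mice 39 and 41 at 1.28 and 1.38, heterozygous mice 37 and 40 at 1.38 and 1.34, and homozygous mice 47 and 49 at 1.38 and 1.30, so this ratio overlapped between the genotypes.

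**Figure D1:**
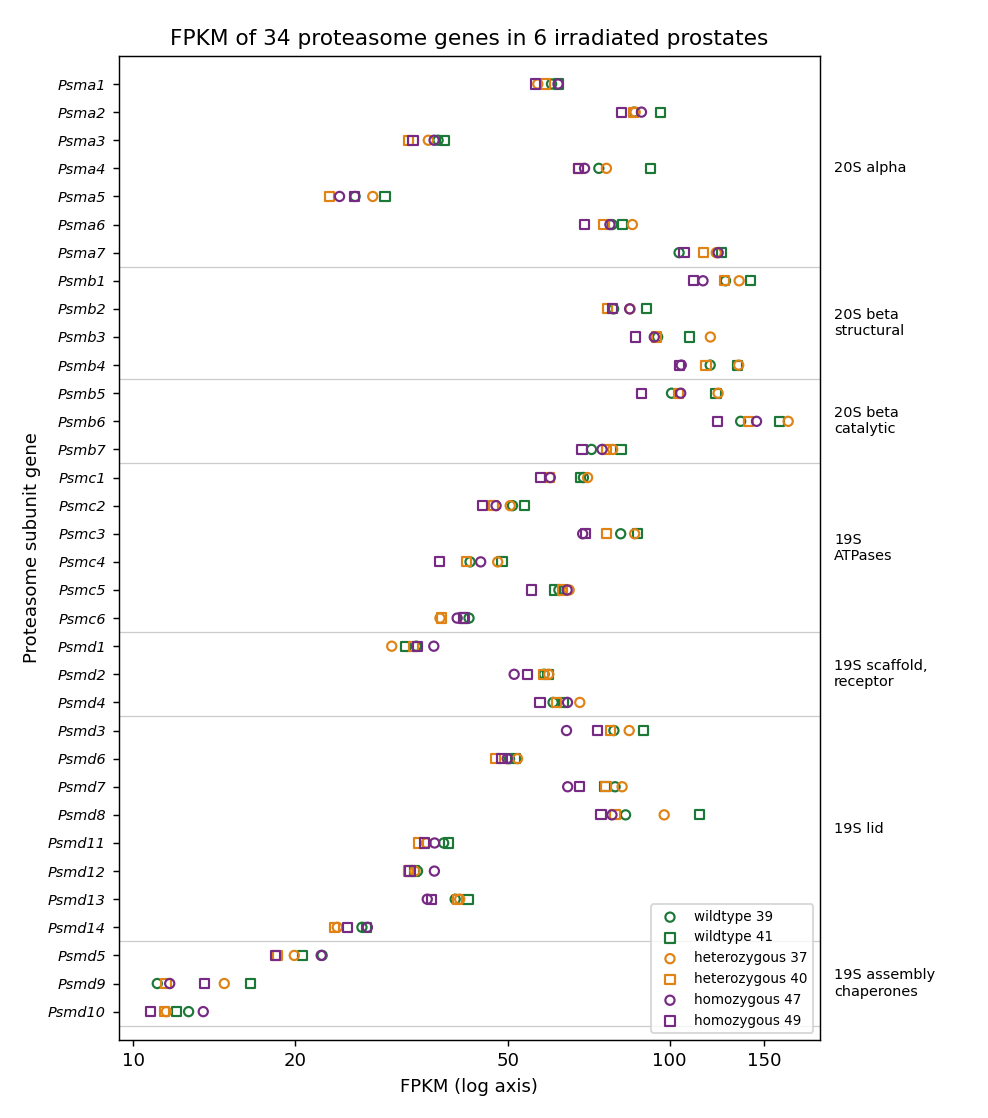
FPKM of the 34 proteasome genes (log axis), grouped by role, with 1 symbol per mouse, colour for genotype and circle or square for the animal. Within a gene the 6 mice lie close together, the widest span being Psmd8 at 1.53 times from lowest to highest, while genes differ from 12 to 145 FPKM in their means.

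These genes varied little from mouse to mouse. For 33 of the 34 the highest of the 6 mice was under 1.5 times the lowest, against 49.2% of all genes tested and 65.4% of the 5441 genes tested in the same FPKM range. The exception was Psmd8, at 1.53 times, and the narrowest was Psmd6, at 1.10 times. The median SD between the mice of a genotype, on the scale of log2(FPKM + 0.1), was 0.0934 for the 34 genes, 0.188 for all genes tested and 0.149 in their FPKM range. These shares and medians are descriptions, since many genes of 1 complex are not independent of each other. The values come from whole prostates, in which fewer cells of a type and less RNA per cell cannot be told apart.

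The 3 catalytic genes come first, since they carry the cutting activity of the core. Psmb5, which encodes the subunit with chymotrypsin-like activity, was at 100.8 and 122 FPKM in wildtype mice 39 and 41, 123 and 104 FPKM in heterozygous mice 37 and 40, and 105 and 88.7 FPKM in homozygous mice 47 and 49. The lowest mouse was homozygous, but homozygous mouse 47 was above wildtype mouse 39, so the genotypes overlapped. The homozygous fold change against wildtype was -0.20 on the log2 scale (SE 0.17, adjusted p 0.568). All fold changes are differences of log2(FPKM + 0.1), and every adjusted p is that of the moderated test of limma on all 6 mice with the Benjamini-Hochberg correction over the 13818 genes.

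Psmb6, whose product has the caspase-like activity, was the most abundant member, at 136 and 160 FPKM in wildtype mice 39 and 41, 166 and 140 FPKM in heterozygous mice 37 and 40, and 145 and 123 FPKM in homozygous mice 47 and 49. It repeated the order of Psmb5 among the 6 mice, with heterozygous mouse 37 highest and homozygous mouse 49 lowest. Psmb7, which encodes the trypsin-like subunit, was at 71.5 and 81.2 FPKM in wildtype mice 39 and 41, 78.3 and 76.3 FPKM in heterozygous mice 37 and 40, and 74.8 and 68.6 FPKM in homozygous mice 47 and 49. Both genes overlapped between wildtype and homozygous mice. The homozygous log2 fold change against wildtype was -0.14 (SE 0.17, adjusted p 0.688) for Psmb6 and -0.09 (SE 0.13, adjusted p 0.735) for Psmb7. Both were above 0 after quantile normalization, at 0.07 and 0.06.

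The 7 alpha genes build the outer rings, which gate the entry to the core. In 6 of the 7 the homozygous mean was below the wildtype mean on the log2 scale, between -0.27 for Psma4 and 0.01 for Psma7. Psma4 was at 73.8 and 92.2 FPKM in wildtype mice 39 and 41, 76.2 and 67.7 FPKM in heterozygous mice 37 and 40, and 69.4 and 67.6 FPKM in homozygous mice 47 and 49. Both homozygous mice lay below both wildtype mice, but wildtype mouse 41 stood far above the other 5, and the fold change did not pass the test (SE 0.15, adjusted p 0.404). Its heterozygous difference from wildtype, -0.20 (SE 0.15, adjusted p 0.881), was the largest among the 34 genes. Psma7 was at 104 and 125 FPKM in wildtype mice 39 and 41, 122 and 115 FPKM in heterozygous mice 37 and 40, and 123 and 106 FPKM in homozygous mice 47 and 49, so that the 2 outer genotypes covered the same span. Psma1, Psma2, Psma3, Psma5 and Psma6 had means of 26.1 to 87.3 FPKM, and of these Psma3, Psma5 and Psma6 had both homozygous mice below both wildtype mice. In Psma5 homozygous mouse 49 and wildtype mouse 39 were nearly equal, at 25.84 and 25.92 FPKM.

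The 4 structural beta genes complete the inner rings. All 4 were lower on average in homozygous than in wildtype mice, with log2 fold changes from -0.27 for Psmb4 to -0.06 for Psmb2. Psmb4 was at 119 and 134 FPKM in wildtype mice 39 and 41, 134 and 117 FPKM in heterozygous mice 37 and 40, and 105 and 104 FPKM in homozygous mice 47 and 49. The 2 homozygous mice were nearly equal and lay below the other 4 mice, yet the difference from wildtype did not pass the test (SE 0.14, adjusted p 0.365). Psmb2 was at 78.6 and 90.6 FPKM in wildtype mice 39 and 41, 84.4 and 76.6 FPKM in heterozygous mice 37 and 40, and 84.2 and 78.3 FPKM in homozygous mice 47 and 49, with all 3 genotypes overlapping. Psmb1 and Psmb3, with means of 126 and 99.5 FPKM, resembled Psmb4 in that both homozygous mice lay below both wildtype and both heterozygous mice.

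The 6 ATPase genes form the ring of the 19S cap that unfolds a substrate and threads it into the core. Psmc3 had the lowest adjusted p of the 34 genes in this comparison. It was at 81.0 and 87.1 FPKM in wildtype mice 39 and 41, 86.1 and 76.4 FPKM in heterozygous mice 37 and 40, and 68.8 and 69.8 FPKM in homozygous mice 47 and 49. Both homozygous mice were below the other 4, and the log2 fold change against wildtype was -0.28 (SE 0.12), with an adjusted p of 0.311 and a 95% interval from -0.58 to 0.03. Psmc6 was at 42.3 and 41.5 FPKM in wildtype mice 39 and 41, 37.3 and 37.5 FPKM in heterozygous mice 37 and 40, and 40.2 and 41.2 FPKM in homozygous mice 47 and 49. Here the heterozygous mice were the low ones, below both other genotypes, and the homozygous fold change was -0.04 (SE 0.10, adjusted p 0.857). Psmc1, Psmc2, Psmc4 and Psmc5 had means of 43.7 to 64.1 FPKM, and Psmc5 was the only member with both heterozygous mice above both wildtype mice.

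Of the scaffold and receptor genes of the cap, Psmd1 and Psmd2 encode the large subunits that dock shuttles and ubiquitin, and Psmd4 the receptor Rpn10. Psmd1 was at 33.7 and 32.2 FPKM in wildtype mice 39 and 41, 30.3 and 33.3 FPKM in heterozygous mice 37 and 40, and 36.3 and 33.9 FPKM in homozygous mice 47 and 49. It was the only member with both homozygous mice above both wildtype mice, although mice 49 and 39 were nearly equal, and its log2 fold change of 0.09 (SE 0.11, adjusted p 0.697) was the highest of the 34. Psmd2 was at 58.3 and 59.3 FPKM in wildtype mice 39 and 41, 59.5 and 58.2 FPKM in heterozygous mice 37 and 40, and 51.3 and 54.4 FPKM in homozygous mice 47 and 49. The wildtype and heterozygous mice had the same mean, 58.8 FPKM in each, with a log2 difference of 0.00 that was the smallest of the 34 genes, and both homozygous mice lay below them (log2 fold change -0.15, SE 0.11, adjusted p 0.490). Psmd4 had a mean of 62.6 FPKM and overlapped between the genotypes.

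The 8 lid genes include Psmd14, which encodes the deubiquitinase that strips the chain from the substrate. Psmd8 varied most among all members, at 82.8 and 114 FPKM in wildtype mice 39 and 41, 97.7 and 79.1 FPKM in heterozygous mice 37 and 40, and 78.1 and 74.5 FPKM in homozygous mice 47 and 49. The homozygous mice agreed closely and lay below the rest, although mice 47 and 40 were nearly equal. Wildtype mouse 41 and heterozygous mouse 37 were the high ones. The homozygous log2 fold change against wildtype was -0.35 (SE 0.20, adjusted p 0.402), the lowest of the 34. Without wildtype mouse 39 it was -0.58, and without mouse 41 it was -0.12. Psmd12 was at 33.9 and 33.5 FPKM in wildtype mice 39 and 41, 33.5 and 32.6 FPKM in heterozygous mice 37 and 40, and 36.4 and 32.8 FPKM in homozygous mice 47 and 49, with the 2 homozygous mice on opposite sides of the wildtype pair (log2 fold change 0.04, SE 0.11, adjusted p 0.877). Psmd3, Psmd6, Psmd7, Psmd11, Psmd13 and Psmd14 had means of 25.7 to 77.9 FPKM. In Psmd3, Psmd7 and Psmd13 both homozygous mice lay below the other 4, whereas Psmd14 had both heterozygous mice below the other 4.

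The 3 assembly chaperones of the cap, Psmd5, Psmd9 and Psmd10, hold the ATPases during assembly and leave the finished particle, and they were the least abundant members. Psmd9 was at 11.1 and 16.5 FPKM in wildtype mice 39 and 41, 14.8 and 11.5 FPKM in heterozygous mice 37 and 40, and 11.7 and 13.6 FPKM in homozygous mice 47 and 49. The wildtype pair held both its lowest and its highest value, and its interval was the widest of the 34, from -0.68 to 0.47 around a log2 fold change of -0.10 (SE 0.23, adjusted p 0.840). Psmd10, also known as gankyrin, which has been described to aid the degradation of p53 through Mdm2, was at 12.7 and 12.1 FPKM in wildtype mice 39 and 41, 11.5 and 11.4 FPKM in heterozygous mice 37 and 40, and 13.5 and 10.8 FPKM in homozygous mice 47 and 49. The 2 homozygous mice were its highest and its lowest value (log2 fold change -0.04, SE 0.14, adjusted p 0.916). Psmd5 had a mean of 20.4 FPKM, with both heterozygous mice below both wildtype mice.

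Comparing homozygous with wildtype mice, none of the 34 genes passed the test of limma at an adjusted p of 0.05, where 0.384% of all genes tested did, and none reached an unadjusted p under 0.05, where 8.65% of all genes were higher and 9.32% lower. On average 31 members were lower and 3, Psma7, Psmd1 and Psmd12, were higher, and the log2 fold changes ran from -0.35 to 0.09 with a median of -0.12. Of all genes tested 7597 of 13818 were lower, and 3715 of the 5441 in the FPKM range of the members. The median over all genes tested was -0.04, and over the 5441 genes in the FPKM range of the members it was -0.12, the same as that of the members. The data allowed bounds to be set: the 95% interval lay within 1.5-fold in either direction for 28 of the 34 genes, against 33.1% of all genes tested and 49.0% in the FPKM range. The other 6 were Psma4, Psmb4, Psmb5, Psmd3, Psmd8 and Psmd9. In 18 of the 34 (52.9%) both homozygous mice lay below both wildtype mice, against 28.7% of all genes tested and 40.8% in the FPKM range, and in 1, Psmd1, both lay above, against 21.3% of all genes and 13.5% in the FPKM range. After quantile normalization, which gives each mouse the same distribution of values, the median of the members was 0.01 and 16 of the 34 were lower. After median scaling the median was -0.10 and 31 were lower. The small average shortfall was thus lost with quantile normalization but kept with median scaling.

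Comparing heterozygous with wildtype mice, no member passed the test and the lowest adjusted p was 0.860, where 0% of all genes tested passed. No member reached an unadjusted p under 0.05 either, where 4.66% of all genes were higher and 2.21% lower. The log2 fold changes ran from -0.20 to 0.06 with a median of -0.05, 24 lower and 10 higher. The median was -0.01 over all genes tested and -0.04 over those in the FPKM range of the members. Of all genes tested 7302 of 13818 were lower, and 3238 of the 5441 in that range. The number of members lower moved with single animals, to 31 without wildtype mouse 39 and 30 without heterozygous mouse 37, and to 15 without wildtype mouse 41 and 14 without heterozygous mouse 40. The interval lay within 1.5-fold for 32 of the 34, against 42.6% of all genes, the exceptions being Psmd8 and Psmd9. Both heterozygous mice lay below both wildtype mice in 8 members (Psma1, Psma3, Psmc2, Psmc6, Psmd5, Psmd10, Psmd11 and Psmd14), or 23.5%. This compares with 19.9% of all genes tested and 23.6% in the FPKM range, so it was near the latter share. Both lay above in 1 (Psmc5), against 19.2% of all genes and 14.3% in the FPKM range.

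**Figure D2:**
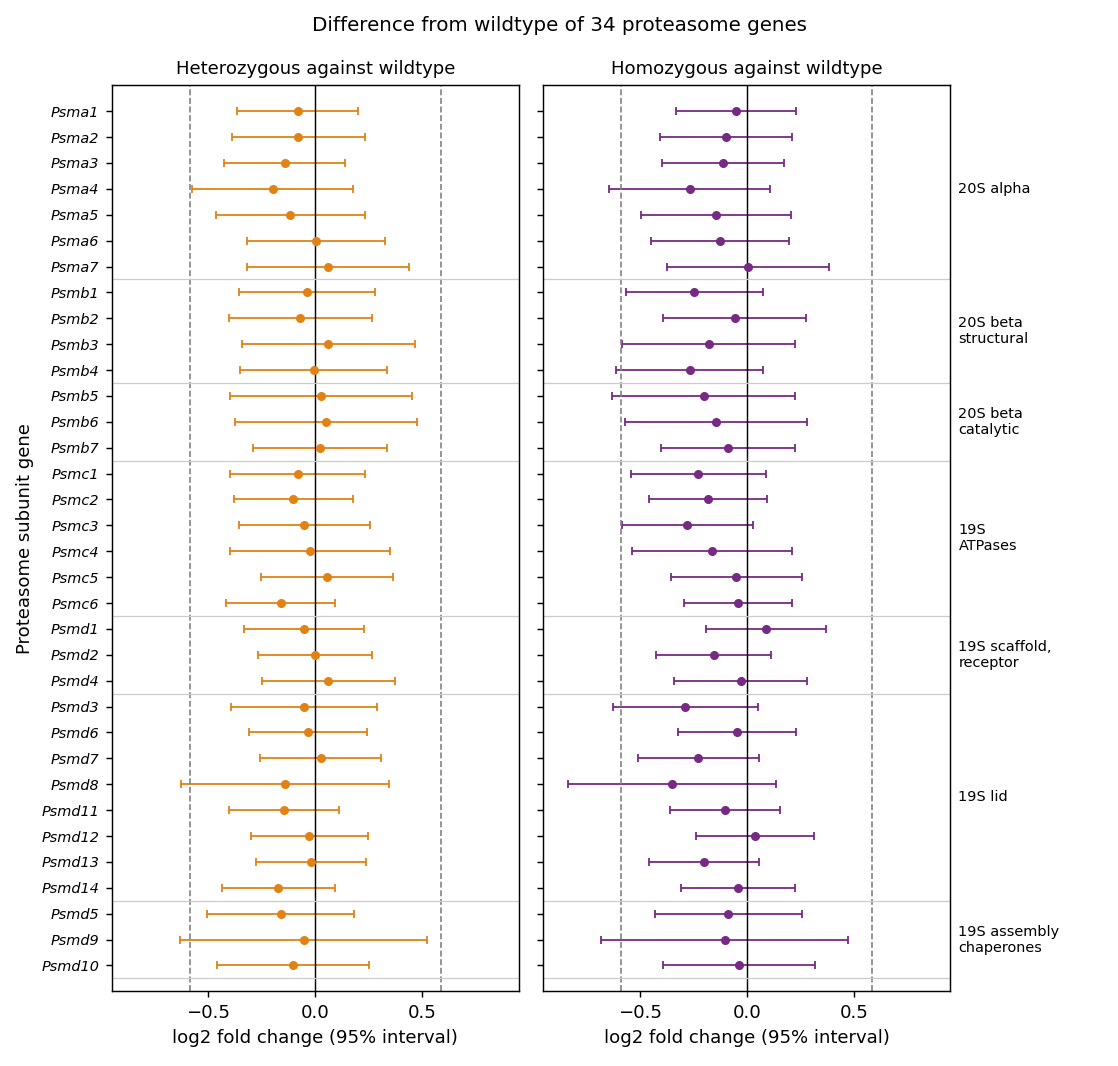
log2 fold change of each proteasome gene against wildtype, heterozygous on the left and homozygous on the right, with the 95% interval as a bar (2 mice per genotype) and dashed lines at a 1.5-fold difference in either direction. Every interval crosses 0, and 32 intervals on the left and 28 on the right lie between the dashed lines.

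Comparing homozygous with heterozygous mice, the median log2 fold change was -0.08, with 24 members lower and 10 higher and a range from -0.26 to 0.14. The median was -0.03 over all genes tested and -0.08 over those in the FPKM range of the members, the same as that of the members. Of all genes tested 7490 of 13818 were lower, and 3550 of the 5441 in that range. No member passed the test, with 0.707 as the lowest adjusted p, where 0.0145% of all genes did, and none reached an unadjusted p under 0.05, where 1.97% of all genes were higher and 4.42% lower. The interval was within 1.5-fold for 28 of the 34, against 38.1% of all genes. This comparison and the 2 above share mice, so their values are not independent of each other.

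Over the 3 genotypes together, no member passed the F-test of limma, where 0.101% of all genes did, and the lowest adjusted p was 0.534. None met an unadjusted p under 0.05 together with a 1.5-fold difference between genotype means, the kind of threshold used in the study, against 8.31% of all genes tested. None was ordered by the number of mutant alleles without overlap, where 3.85% of all genes rose and 4.98% fell in that order from wildtype over heterozygous to homozygous mice. By contrast Cdkn1a, the cell cycle inhibitor p21 and a direct target of p53, was at 109 and 101 FPKM in wildtype mice 39 and 41, 40.5 and 41.4 FPKM in heterozygous mice 37 and 40, and 6.70 and 6.17 FPKM in homozygous mice 47 and 49, which separates the 3 labelled genotypes. Trp53 itself was between 17.3 and 21.4 FPKM in all mice, and FPKM does not tell its alleles apart.

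The members varied together from mouse to mouse in a way that crossed the genotypes. Taking each gene against its own mean over the 6 mice, the median log2 deviation of the 34 genes was 0.01 and 0.11 in wildtype mice 39 and 41, 0.07 and -0.05 in heterozygous mice 37 and 40, and 0.00 and -0.12 in homozygous mice 47 and 49. Mouse 41 held the highest value of 17 members and mouse 37 that of 11, and mouse 49 held the lowest value of 18. Within each genotype most members leaned to the same animal: 26 of 34 were higher in mouse 41 than in 39, 31 were higher in 37 than in 40, and 26 were higher in 47 than in 49. Over all genes tested 57.0% were higher in 41 than in 39, 46.6% higher in 40 than in 37, and 49.8% higher in 49 than in 47. On the scale of median log2 deviation homozygous mouse 47 was at the level of wildtype mouse 39, whereas as a share of all FPKM it was the lowest of the 6. Without mouse 49 the median of homozygous against wildtype was -0.05, without 41 it was -0.07, and without 39 or 47 it was -0.18.

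**Figure D3:**
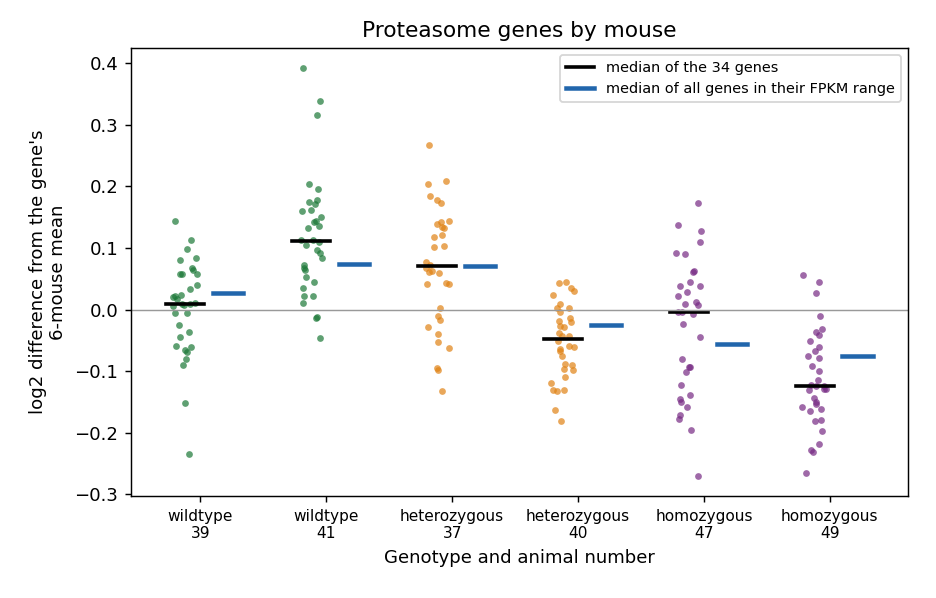
Difference of each proteasome gene from its own 6-mouse mean on the log2 scale, 1 point per gene and mouse, with the median of the 34 genes in black and that of the 5441 genes of the same FPKM range in blue. The medians of the 34 genes are highest in wildtype mouse 41 (0.11) and heterozygous mouse 37 (0.07) and lowest in homozygous mouse 49 (-0.12), and the blue medians follow the same order in part.

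Genes of like abundance moved in a similar manner. In the top quintile of all genes tested by FPKM, the 2764 genes with a mean above 28.7 FPKM, the median deviation was 0.03 and 0.10 in wildtype mice 39 and 41, 0.12 and -0.03 in heterozygous mice 37 and 40, and -0.08 and -0.12 in homozygous mice 47 and 49. This quintile held 29 of the 34 proteasome genes. Its median log2 fold change of homozygous against wildtype was -0.18, beside -0.14 for the 29 members in it, and it changed with abundance through -0.10, -0.03 and 0.06 to 0.15 in the lowest quintile. The 75 cytosolic ribosomal protein genes, taken for comparison after their values were seen, had a median deviation of -0.04 and 0.27 in wildtype mice 39 and 41, 0.29 and -0.09 in heterozygous mice 37 and 40, and -0.16 and -0.30 in homozygous mice 47 and 49. Mice 41 and 37 were high and 49 low, as among the members, but mouse 47 lay below mouse 39 here and level with it among the members.

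**Figure D4:**
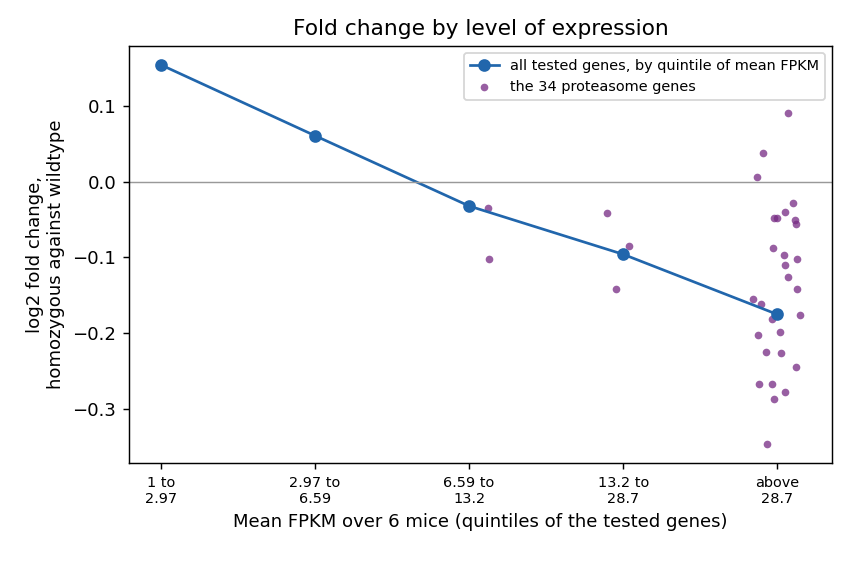
log2 fold change of homozygous against wildtype by quintile of mean FPKM (lowest on the left). Blue points joined by a line are the medians of all genes tested, from 0.15 in the lowest to -0.18 in the highest quintile, and purple points are the 34 proteasome genes, 29 of which lie in the highest quintile around its median.

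The make-up of the samples also differed between the mice. Prostate epithelial markers were present in every mouse, but their summed level was 1642 FPKM in homozygous mouse 47 against 14050 to 23917 FPKM in the other 5, and Pbsn, the probasin gene, was at 257 FPKM there against 7329 to 11512 FPKM. The sum of 12 skeletal muscle markers was 1942 and 2801 FPKM in the wildtype mice and 5364 to 6654 FPKM in the other 4. Of the 12, 11 were higher than in wildtype at an unadjusted p under 0.05 in both mutant groups, and none passed the adjusted test. Of all genes tested 8.65% were higher at that unadjusted threshold in homozygous and 4.66% in heterozygous mice. The sum of 7 seminal vesicle markers was 3488 FPKM in wildtype mouse 39 against 35187 to 59466 FPKM in the others, but single markers went opposite ways. Svs2, Svs4 and Svs5 were listed at 0 in mouse 47 and Svs2 in mouse 49. Svs1, Svs3a, Svs6 and Pate4 were instead highest in mouse 47, with Svs6 at 26147 FPKM there against 28.6 to 1021 FPKM in the other mice. The 4 endothelial markers summed to 21.9 and 24.4 FPKM in the wildtype mice and 29.6 to 37.3 FPKM in the others, and the 6 macrophage markers to 81.2 FPKM in mouse 47 against 134 to 216 FPKM. The part of these differences in the proteasome values was not tested. Without mouse 47 the median log2 fold change of the members, homozygous against wildtype, was -0.18. That value rests on mouse 49 alone for the homozygous genotype, so it cannot tell whether the make-up mattered. The relative fragment depth, read from the smallest FPKM steps, was 0.790 to 1.07 times that of mouse 39, and 13452 to 13827 genes were at 1 FPKM or more in a mouse.

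The inducible genes that the rule set apart replace the catalytic subunits in immune cells and under interferon. Psmb8 was at 19.03 and 15.3 FPKM in wildtype mice 39 and 41, 17.2 and 17.4 FPKM in heterozygous mice 37 and 40, and 19.1 and 20.3 FPKM in homozygous mice 47 and 49. Psmb9 was at 8.602 and 8.898 FPKM in wildtype mice 39 and 41, 8.72 and 8.11 FPKM in heterozygous mice 37 and 40, and 9.53 and 10.1 FPKM in homozygous mice 47 and 49. In both genes the homozygous mice lay above the other 4, although mice 47 and 39 were nearly equal in Psmb8, and neither passed the test against wildtype, with log2 fold changes of 0.20 (SE 0.14, adjusted p 0.484) and 0.16 (SE 0.12, adjusted p 0.5002). Psmb10 was at 16.9 and 13.6 FPKM in wildtype mice 39 and 41, 16.1 and 15.7 FPKM in heterozygous mice 37 and 40, and 15.5 and 14.3 FPKM in homozygous mice 47 and 49, inside the wildtype span. Each was expressed well below the constitutive gene it replaces, Psmb5, Psmb6 and Psmb7 having means of 107, 145 and 75.1 FPKM and Psmb8, Psmb9 and Psmb10 means of 18.1, 8.996 and 15.3 FPKM.

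The genes around the proteasome were read from lists. None of them passed the test at an adjusted p of 0.05 in any comparison. Counting an unadjusted p under 0.05, no gene stood out among the 5 of the immunoproteasome and 11S activator (median log2 fold change of homozygous against wildtype -0.02), the 3 other activators and inhibitor genes (-0.20), the 4 ubiquitin precursors (-0.35) or the 5 tested genes of ubiquitin activation and p97 (-0.24). Among the 5 chaperones of the 20S core (-0.27) it was Psmg4, among the 8 tested of 11 listed proteasome-bound genes (-0.09) it was Txnl1. Both were lower in homozygous than in wildtype mice, where 9.32% of all genes tested were. Among the 6 ubiquitin shuttles (-0.08) it was Rad23b, lower in heterozygous than in wildtype mice, where 2.21% of all genes tested were. Psmg4 was also lower in homozygous than in heterozygous mice at this threshold, where 4.42% of all genes tested were.

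The regulators of proteasome genes held 3 such genes of 10 in homozygous against wildtype mice, all lower, where 9.32% of all genes tested were lower and 8.65% higher at an unadjusted p under 0.05. The list median was -0.29, beside -0.04 over all genes tested and -0.12 over those in the FPKM range of the members. Nfe2l2, which encodes Nrf2, was at 35.7 and 31.2 FPKM in wildtype mice 39 and 41, 32.9 and 35.7 FPKM in heterozygous mice 37 and 40, and 25.6 and 24.5 FPKM in homozygous mice 47 and 49, with no overlap between the homozygous mice and the rest (log2 fold change -0.41, SE 0.12, adjusted p 0.199). Mafk, a small Maf partner of Nrf1 and Nrf2, was at 20.4 and 25.7 FPKM in wildtype mice 39 and 41, 22.4 and 20.4 FPKM in heterozygous mice 37 and 40, and 12.6 and 17.8 FPKM in homozygous mice 47 and 49 (log2 fold change -0.61, SE 0.21, adjusted p 0.229). Both genes, which were picked by their unadjusted p, had their lowest values in the homozygous mice. Both were also lower at an unadjusted p under 0.05 in homozygous than in heterozygous mice, where 4.42% of all genes tested were. Nfyb, a subunit of the CCAAT-binding factor NF-Y, was at 14.22 and 14.03 FPKM in wildtype mice 39 and 41, 10.6 and 9.99 FPKM in heterozygous mice 37 and 40, and 9.90 and 10.2 FPKM in homozygous mice 47 and 49. Its wildtype mice stood above all mutant mice, with a log2 fold change of -0.49 in homozygous (SE 0.11, adjusted p 0.149) and -0.45 in heterozygous mice (SE 0.11, adjusted p 0.413). Nfe2l1, which encodes Nrf1, was at 119 and 107 FPKM in wildtype mice 39 and 41, 117 and 112 FPKM in heterozygous mice 37 and 40, and 84.7 and 104 FPKM in homozygous mice 47 and 49 (log2 fold change -0.26, SE 0.15, adjusted p 0.403), and it was named after its values were seen.

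Psmg4, an assembly chaperone of the core, was at 22.7 and 26.5 FPKM in wildtype mice 39 and 41, 28.8 and 20.7 FPKM in heterozygous mice 37 and 40, and 17.8 and 17.1 FPKM in homozygous mice 47 and 49 (log2 fold change of homozygous against wildtype -0.49, SE 0.18, adjusted p 0.257). Txnl1, a thioredoxin-like protein bound to the cap, was at 40.5 and 41.5 FPKM in wildtype mice 39 and 41, 36.4 and 36.7 FPKM in heterozygous mice 37 and 40, and 27.7 and 35.4 FPKM in homozygous mice 47 and 49 (log2 fold change -0.39, SE 0.15, adjusted p 0.254). Rad23b, a shuttle that brings tagged proteins to the cap, was at 62.1 and 64.5 FPKM in wildtype mice 39 and 41, 52.01 and 50.05 FPKM in heterozygous mice 37 and 40, and 56.6 and 58.4 FPKM in homozygous mice 47 and 49 (log2 fold change of heterozygous against wildtype -0.31, SE 0.11, adjusted p 0.639). These 3 genes had both mutant mice of the compared group below both wildtype mice. Of all genes tested 28.7% did so in homozygous and 19.9% in heterozygous mice. The 3 were picked by their unadjusted p in the same comparison, so this separation is not a further result. The 20 chaperone genes listed for comparison were another set of abundant protein-handling genes, cytosolic but for the mitochondrial Hspd1 and Hspe1. Their median log2 fold change of homozygous against wildtype was -0.23. Of the 20, 2 were lower at an unadjusted p under 0.05 in that comparison, where 9.32% of all genes tested were. Against heterozygous mice 5 of the 20 were lower, where 4.42% of all genes were, and none passed the adjusted test in either comparison.

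The members lie on 15 chromosomes of GRCm38, with at most 6 on 1, chromosome 11 (Psmb3, Psmb6, Psmc5, Psmd3, Psmd11 and Psmd12). The 2 genes with the lowest and the highest fold change, Psmd8 and Psmd1, are at chr7:29174188-29180701 on the minus strand and chr1:86064387-86139151 on the plus strand, and Psmc3 is at chr2:91054009-91066369 on the plus strand. Exons of 9 members overlap those of another gene, Psmb5 with Mir686 and Psmd1 with Gm21972 on the same strand, and 8, Psmd1 included, with a gene on the other strand. The libraries were stranded, but whether strand was used in counting is not given in the sources used here, so reads in those overlaps cannot be assigned with certainty. Near-identical pseudogenes, with at least 90% identity over at least 300 bases, exist for 12 members, and those with a value summed to at most 1.66% of the member's own FPKM (Psma3).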

How the data were processed

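RNA-seq of 6 prostates, 2 mice per genotype by the labels, was examined. The authors isolated total RNA, prepared stranded mRNA libraries, aligned reads to GRCm38/mm10 with HISAT and quantified genes with Cufflinks, and deposited gene-level FPKM. The processing notes of the submitters also name Cuffnorm and bcl2fastq. Tool versions, annotation and strand setting are not given in the sources used here. FPKM keeps no fragment counts, so the counting error of a value is unknown.

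The 13818 genes whose FPKM averaged 1 or more were analysed as log2(FPKM + 0.1) by limma (version 3.58.1, R version 4.3.3; genotype as factor, intensity trend, moderated tests of 3 differences and an F-test, Benjamini-Hochberg over all genes, threshold 0.05), and the script was tested on simulated data. With 2 mice a group, an exact two-sided permutation test of 1 gene cannot go below 0.333. Values per mouse were given for the 3 catalytic genes, the members with the highest and lowest homozygous fold change in each other role, those with the largest and smallest heterozygous difference, and pathway genes with an unadjusted p under 0.05. The members and lists were chosen with earlier results of these data known. Alternatives changed the pseudocount (0.01, 1), the minimum (none, 5), the scaling (median, quantile) and the variance model, or left out each mouse. Promoters came from RefSeq, positions from GENCODE, and pseudogenes were sought with BLAST 2.17.0. Protein sequences were not used here.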

Additional observations from a re-analysis of the deposited data

How the results depend on the processing

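Of 732 values recomputed over 54 results and 14 alternatives, 683 were labelled as the same, 31 as moved and 18 as reversed. The limits behind these labels are not given here. The values labelled as the same include counts that were 0 throughout, and also drops in the number of narrow intervals. Whichever mouse was left out, fewer than 28 intervals of homozygous and fewer than 32 of heterozygous against wildtype mice lay within 1.5-fold. The bounds against wildtype thus depended on having every mouse. No alternative called a member at an adjusted p of 0.05. After quantile normalization the median log2 fold change of the members was 0.00591 in homozygous against wildtype mice, with 16 of 34 lower, and 0.0460 in homozygous against heterozygous mice, with 13 lower. The same scaling turned Psmb6 to 0.0735, Psmb7 to 0.0597, Psmb2 to 0.0771, Psmc6 to 0.0995 and Psmd10 to 0.00629 in homozygous mice and Psmd2 to -0.00123 in heterozygous mice (-0.00196 with median scaling). It left 7 members with both homozygous mice above both wildtype mice, 8 with both below, 2 with both heterozygous mice above and 1 that fell in order of the alleles. Without a minimum of FPKM, 1 member (Psmc3) was lower at an unadjusted p under 0.05 in homozygous against wildtype mice and 1 (Psmd7) against heterozygous mice. With each gene's own variance alone, 4 were lower in homozygous than in wildtype mice (Psmc3, Psmd2, Psmd7 and Psmd13), 3 lower in heterozygous mice (Psmc6, Psmd11 and Psmd14), 1 higher (Psmc6) and 3 lower (Psmd2, Psmd7 and Psmd13) in homozygous than in heterozygous mice, and 4 in the F-test. The counts of members under these alternatives are given without the matching share of all genes, so they are not read as a result about the members. The cause was not tested.

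Leaving out 1 mouse at a time, the lone mouse of that genotype being assumed to vary like the others, gave 0 to 2 members lower at an unadjusted p under 0.05 in homozygous against wildtype mice (Psma4 and Psmd8, without mouse 39), 14 to 31 lower on average in heterozygous mice, and 18 to 29 with an interval within 1.5-fold between homozygous and heterozygous mice. Homozygous fold changes ran from -0.179 to 0.00307 for Psmb7, -0.125 to 0.136 for Psma7, -0.158 to 0.0465 for Psmb2, -0.0374 to 0.113 for Psmd12, -0.198 to 0.127 for Psmd10 and -0.389 to 0.183 for Psmd9, and the heterozygous one of Psmd2 from -0.0165 to 0.0166. Members without overlap with wildtype numbered 1 to 6 with homozygous mice above, 18 to 31 below, 1 to 11 with heterozygous mice above, 8 to 24 below, and 0 to 7 falling in order. With 1 mouse left in a genotype, values separate more easily in any gene. The matching share of all genes is not given, so these counts are not read as a result about the members. No paired analysis was possible because the animal numbers are not shared between genotypes. With 2 mice a group, differences under the printed intervals were not detectable.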
